A study of Homo sapiens with 24 samples.

Results

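The genes described here encode the proteins of the cytosolic ribosome. They were chosen by symbol alone: protein-coding genes whose name starts with RPL or RPS and a digit, plus RPLP0, RPLP1, RPLP2, RPSA and FAU, without S6 kinases, antisense genes and pseudogenes. This gave 91 of 25343 genes listed, of which 86 were single genes (53 of the large and 33 of the small subunit). The others were 3 read-through genes (RPL17-C18orf32, RPL36A-HNRNPH2 and RPS10-NUDT3), counted apart, and 2 Y-linked genes, counted without values.

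Ribosomal proteins are made in the cytosol, carried into the nucleus and assembled with ribosomal RNA in the nucleolus, and finished subunits join on mRNA in the cytosol. Most of their mRNAs start with a terminal oligopyrimidine (TOP) tract, a C followed by an unbroken run of pyrimidines, through which mTORC1 and LARP1 regulate their translation and stability. Some unassembled members, RPL5 and RPL11 above all, bind MDM2 and so stabilise p53, and a handful have paralogs that can take their place in the particle.

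RNA was measured in A375, a melanoma line, and HCT116, a colon cancer line. Each line was used as a PTDSS2 knockout (KO), a single clone (A375 PTDSS2-KO#54 and HCT116 PTDSS2-KO#3), and as its wild-type parent. Cells were kept for 24 h with 0.1 µM of the compound DS07551382, an inhibitor of the phosphatidylserine synthase PTDSS1, or with the vehicle DMSO, which gave 8 groups of 3 libraries (24 in all). PTDSS2 is the other phosphatidylserine synthase, and the series asks how cells that lack it respond when PTDSS1 is inhibited.

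Library totals, in units of 1e6 counts, ran from 6.21 to 11.69 with a median of 9.20, and HCT116 KO with inhibitor was the shallowest group (7.91, 6.54 and 6.21). PTDSS2 lay between 0.712 and 1.91 CPM, the count per 1e6 counts of the library, in A375 KO libraries, against 21.3 to 24.7 in A375 parent libraries, and between 4.89 and 7.95 in HCT116 KO libraries, against 32.9 to 39.2 in HCT116 parent libraries. Of 10 melanocyte markers, 6 reached 1 CPM in A375 (sum 715 to 1010 CPM) and TYR was at 0, while 3 did in HCT116 (sum 36.9 to 68.3 CPM). Of 10 colon epithelial markers, 2 reached 1 CPM in A375 (sum 213 to 288 CPM) and 7 in HCT116 (sum 3629 to 4338 CPM), where CDX1 was at 0. Nothing in the labels shows that the 3 libraries of a group were separate cultures, and every p-value below is against a between-library spread that may be only technical.

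The start sites of members on which the results turn are shown because the TOP tract lies there. Each line gives 10 bases before and 20 bases from the RefSeq start, 5′ to 3′ on the gene's strand, in assembly GRCh38.p14, and capitals mark C and at least 4 further pyrimidines, read from the start base where it fits and otherwise the longest such run that begins within 10 bases. Where it is read from the start base, pyrimidines in lower case just before it can extend it upstream. First come members that changed with inhibitor in KO cells:
RPL3 (chr22:39319604-39319633, minus strand): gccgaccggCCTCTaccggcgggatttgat
RPL13A (chr19:49487598-49487627, plus strand): aaacctcctcCTTTTCCaagcggctgccga
RPS9 (chr19:54200848-54200877, plus strand): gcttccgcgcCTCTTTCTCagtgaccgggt
RPL35A (chr3:197950180-197950209, plus strand): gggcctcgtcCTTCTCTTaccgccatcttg
RPS26 (chr12:56041908-56041937, plus strand): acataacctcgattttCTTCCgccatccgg
RPL7L1 (chr6:42879606-42879635, plus strand): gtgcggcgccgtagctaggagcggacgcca
The next set pairs paralogs with their partners, so that the letters can be read side by side:
RPL22L1 (chr3:170870176-170870205, minus strand): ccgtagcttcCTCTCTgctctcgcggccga
RPL22 (chr1:6199576-6199605, minus strand): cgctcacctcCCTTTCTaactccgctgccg
RPL36AL (chr14:49620607-49620636, minus strand): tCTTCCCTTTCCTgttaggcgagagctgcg
RPL36A (chrX:101391001-101391030, plus strand): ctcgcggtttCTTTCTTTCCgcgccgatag
RPL26L1 (chr5:172958719-172958748, plus strand): tccaggggtcggcgaacgaaacgcggagct
RPL26 (chr17:8383174-8383203, minus strand): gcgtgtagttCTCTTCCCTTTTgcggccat
RPS27L (chr15:63157458-63157487, minus strand): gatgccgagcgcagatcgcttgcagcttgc
RPS27 (chr1:153990752-153990781, plus strand): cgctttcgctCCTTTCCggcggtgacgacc

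Read from the start base, C and at least 4 further pyrimidines stood at 44 of the 69 members with a RefSeq start sequence (63.8%), whether or not pyrimidines also preceded the start. The same letters stood at the start of 5 of 69 mitochondrial ribosomal protein genes (7.25%) and of 710 of 15216 protein-coding genes (4.67%). With a run allowed to start within 10 bases, the shares were 84.1%, 31.9% and 34.0%. RPL13A, RPS9, RPL35A and RPL22 have these letters from the start base on, in RPL3 they begin 1 base upstream and in RPS26 6 bases downstream. Counting upstream pyrimidines too, the run of RPL13A is 14 bases rather than 7 and that of RPL22 is 11 rather than 7. RPL7L1, RPL26L1 and RPS27L have none in these letters, while RPL26 and RPS27 have them from the start base on. A match is a description of the annotated start, not evidence of the start used in these cells.

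Ribosomal protein mRNAs were among the most abundant in every library. They held between 6.88% and 8.14% of all counts, and 62 of the 86 single-gene members ranked above the 99th percentile of genes, with a median percentile of 99.5. Per length, in TPM (RSEM's length-scaled abundance), the median member stood at 2331 to 2745 across the 8 group means. In A375 parent cells with vehicle the highest were RPL41, the smallest ribosomal protein, at 7110 ± 124 TPM (SD, n = 3), and RPS27 at 6233 ± 131 TPM. In HCT116 parent cells with vehicle they were RPS2, at the mRNA entry side of the small subunit, at 6405 ± 92.3 TPM and RPS18 at 6267 ± 133 TPM, whose spreads overlapped.

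Near-identical copies make some members uncertain. RSEM shares out reads that match several genes, and 20 of the 86 members had a fractional estimate in at least 1 library (tolerance 0.005). RPL21 ranged from 0 to 111 CPM while its copy RPL21P28 held 618 to 818 CPM. RPL13A held 581 to 1089 CPM beside 957 to 1451 CPM for RPL13AP5, and RPL36A held 346 to 495 CPM beside 76.2 to 126 CPM for the read-through gene RPL36A-HNRNPH2. Values for these 3 members depend on how reads were divided, and whether counting used the strand is not given in the sources used here.

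Expressed as a share of the library, the members stood apart in HCT116 KO cells and not in A375 KO cells. With inhibitor the HCT116 KO libraries gave 8.14%, 7.88% and 7.91% of counts to the members, against 7.37%, 7.73% and 7.46% with vehicle. Every inhibitor library lay above every vehicle library, a difference of 0.454 percentage points (exact permutation test, two-sided, p = 0.1, the smallest that 3 against 3 can give). In A375 KO cells the shares were 6.88%, 7.28% and 6.89% with inhibitor, against 7.02%, 7.07% and 7.16% with vehicle. These libraries overlapped, with a difference of -0.0652 percentage points (exact permutation test, two-sided, p = 0.6) that turned to 0.00133 without replicate 1 of the inhibitor group. In bulk RNA a change in the mix of cells and a change in RNA per cell cannot be told apart. A share is relative, so more RNA of the members and less of other RNA cannot be told apart either.

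The mitochondrial ribosomal proteins, encoded by 77 other nuclear genes, took a lower share with inhibitor in both KO lines. They held 0.503% ± 0.00791 of counts in A375 KO cells with inhibitor and 0.553% ± 0.00294 with vehicle (SD, n = 3 each). In HCT116 KO cells the shares were 0.541% ± 0.00672 with inhibitor and 0.609% ± 0.00776 with vehicle. Libraries did not overlap in either line (exact permutation test, two-sided, p = 0.1 in each). So in HCT116 KO cells the cytosolic share was higher with inhibitor where the mitochondrial share was lower.

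**Figure D1:**
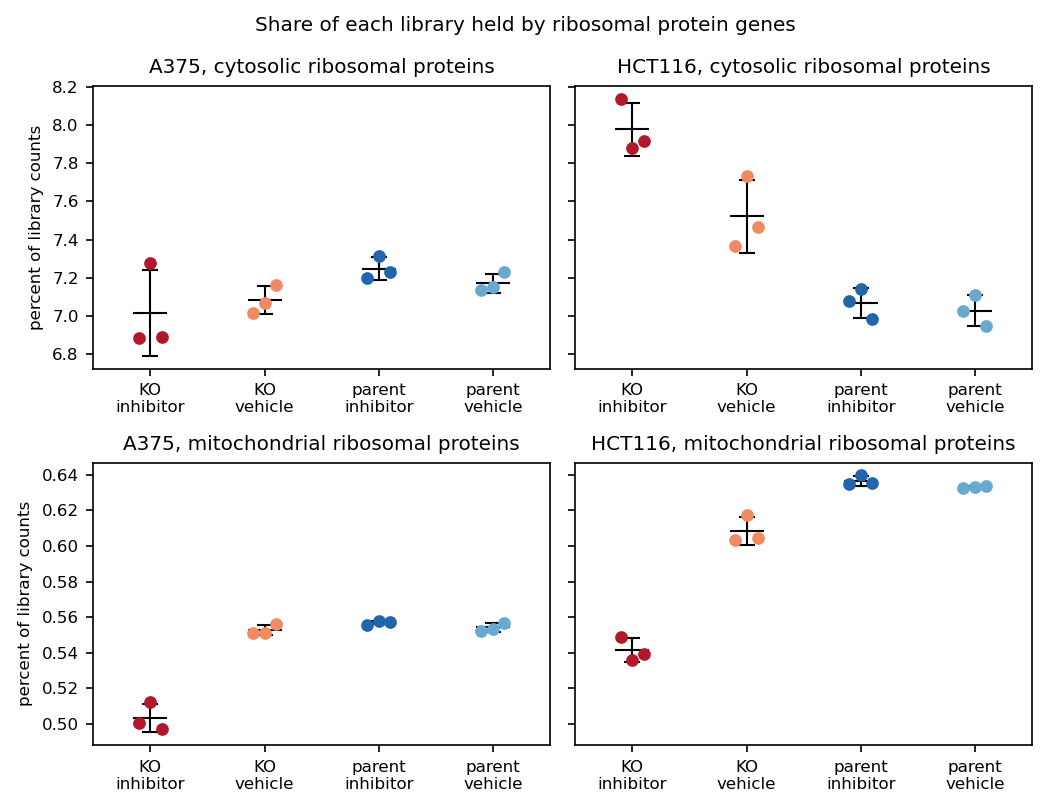
Percent of each library's counts held by cytosolic (top) and mitochondrial (bottom) ribosomal protein genes in the 8 groups, A375 left and HCT116 right. Points are libraries and lines are the mean ± SD (n = 3): in HCT116 KO cells the cytosolic share averaged 7.98% with inhibitor and 7.52% with vehicle, while the mitochondrial share was lower with inhibitor in both KO lines.

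In A375 KO cells with inhibitor most of the members that changed were lower than with vehicle. Of 84 members tested, 2 rose and 21 fell (edgeR quasi-likelihood test, adjusted p under 0.05), while over all genes tested 18.7% rose and 18.8% fell. The changes were small, with log2 fold changes between -0.25 and 0.16 among called members, and the median member stood at -0.04. The large subunit gave 2 rises and 16 falls among 51 members, and the small subunit gave 5 falls among 33. Without replicate 2 of the inhibitor group 33 members fell, and with scaling by library size alone 5 rose and 16 fell. Limma on log2(TPM + 1) gave 6 rises and 11 falls, and omitting the filter gave 4 and 16.

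The 2 members that rose in A375 KO cells were RPL3, a core protein beside the peptidyl transferase centre, and RPL13A, which also serves in an interferon-induced complex that silences translation. RPL3 stood at 1742, 1810 and 1746 normalised CPM with inhibitor, against 1661, 1697 and 1666 with vehicle. All 3 inhibitor libraries were higher, a log2 fold change of 0.08 (SE 0.024, edgeR adjusted p = 0.00694). RPL13A had 673, 706 and 666 normalised CPM with inhibitor and 633, 603 and 590 with vehicle. Again the libraries did not overlap, and the log2 fold change was 0.16 (SE 0.029, edgeR adjusted p = 6.84e-06). Summed with its copy RPL13AP5, a sum chosen after its values were seen and not tested, RPL13A gave 2061 ± 64.4 CPM with inhibitor and 1979 ± 6.93 CPM with vehicle (SD, n = 3 each).

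Among the falls, RPS26, which lines the mRNA exit channel and is mutated in Diamond-Blackfan anaemia, had 359, 376 and 354 normalised CPM in A375 KO cells with inhibitor, against 408, 409 and 438 with vehicle. No library overlapped, and it fell by 0.21 on the log2 scale (SE 0.033, edgeR adjusted p = 7.5e-07). RPL5, which carries 5S ribosomal RNA and binds MDM2, had 661, 711 and 676 normalised CPM with inhibitor and 781, 755 and 781 with vehicle. It was likewise lower in every inhibitor library, by a log2 fold change of -0.18 (SE 0.032, edgeR adjusted p = 2.27e-05). RPL35A, another Diamond-Blackfan anaemia gene, had 341, 384 and 357 with inhibitor and 401, 387 and 406 with vehicle, the highest inhibitor library just under the lowest vehicle library (log2 fold change -0.14, edgeR adjusted p = 0.000201). RPL36 of the large subunit had 394, 423 and 403 with inhibitor and 450, 446 and 467 with vehicle, also without overlap (log2 fold change -0.16, edgeR adjusted p = 8.77e-06).

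The paralogs behaved unevenly in A375 KO cells. RPL7L1, a relative of RPL7 whose yeast counterpart is an assembly factor rather than a subunit, had 76.9, 78.8 and 76.9 normalised CPM with inhibitor and 95.3, 92.5 and 89.4 with vehicle. This was the largest fall among called members (log2 fold change -0.25, SE 0.046, edgeR adjusted p = 7.77e-06). RPL26L1 had 50.7, 61.0 and 52.7 with inhibitor and 60.2, 63.5 and 69.7 with vehicle, overlapping in 1 library, at a log2 fold change of -0.23 (SE 0.062, edgeR adjusted p = 0.00197). Its partner RPL26 fell by 0.09, and RPL22 fell by 0.10, with its call lost in 2 of 18 alternatives, while its paralog RPL22L1 was not called at -0.04. RPS27L, a p53-induced paralog of RPS27, was not called at 0.02, nor was RPL36AL at 0.09 (edgeR adjusted p = 0.0714).

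Of the members known for binding MDM2, RPL23 and RPS7 fell in A375 KO cells by 0.08 and 0.07 on the log2 scale, each losing its call in some alternatives, and RPL11 and RPS3 were not called at -0.04 each. The stalk proteins that recruit elongation factors were not called (RPLP0 at 0.05, RPLP1 at 0.04 and RPLP2 at 0.02), nor were RPL12 at the stalk base and RPL10, which joins last, at 0.02 each. In the small subunit RPS27A, made as a fusion with ubiquitin, fell by 0.09, with its call lost in 3 of 18 alternatives. RPS19, the gene most often mutated in Diamond-Blackfan anaemia, fell by 0.07, also losing its call in some alternatives, and RPS6, the substrate of the S6 kinases, was not called at 0.01.

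In HCT116 KO cells the called members mostly rose. Of 83 tested, 27 rose and 4 fell (edgeR, adjusted p under 0.05), while over all genes tested 17.1% rose and 20.1% fell. Called log2 fold changes ran from -0.27 to 0.25 and the median member stood at 0.05. The large subunit had 12 rises and 2 falls among 50, and the small subunit 15 rises and 2 falls among 33. Without replicate 1 of the KO vehicle group 17 rose. This group of inhibitor libraries was the shallowest of the series, and the part of depth in the result was not tested.

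RPL3 led the rises in HCT116 KO cells. It had 2765, 2689 and 2663 normalised CPM with inhibitor and 2251, 2339 and 2241 with vehicle, without overlap (log2 fold change 0.25, SE 0.028, edgeR adjusted p = 4.04e-11). RPL13A had 1087, 1020 and 1014 with inhibitor and 863, 925 and 870 with vehicle, and its sum with RPL13AP5 was 2365 ± 68.7 CPM with inhibitor and 2053 ± 57.8 CPM with vehicle (SD, n = 3 each). The inhibitor libraries of RPL13A were all higher, by a log2 fold change of 0.23 (SE 0.031, edgeR adjusted p = 5.15e-09). RPS9, whose bacterial counterpart binds ribosomal RNA early in small subunit assembly, had 1032, 936 and 993 normalised CPM with inhibitor and 832, 894 and 834 with vehicle. Its libraries did not overlap either (log2 fold change 0.21, SE 0.033, edgeR adjusted p = 3.28e-07).

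Proteins of the stalk and its base were divided in HCT116 KO cells. RPL12 had 1279, 1200 and 1217 normalised CPM with inhibitor and 1073, 1140 and 1050 with vehicle, again without overlap, and rose by 0.18 on the log2 scale. RPL10 rose by 0.17 and RPLP0 by 0.15, while RPLP1 at 0.02 and RPLP2 at -0.04 were not called. RPS29 rose by 0.19, RPS2 by 0.17 and RPS3, at the mRNA entry channel, by 0.15. RPSA and RPS6 rose by 0.09 each, RPL41 by 0.11, and RPS14, the gene lost in the 5q- syndrome, by 0.09, although RPS14, RPS6 and RPSA lost their calls in some alternatives.

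The 4 falls in HCT116 KO cells were the paralogs RPS27L and RPL7L1 and the subunit proteins RPS26 and RPL23A. RPS27L had 91.5, 87.3 and 90.9 normalised CPM with inhibitor and 104, 110 and 107 with vehicle. All 3 inhibitor libraries lay lower, at a log2 fold change of -0.25 (SE 0.052, edgeR adjusted p = 8.89e-05). RPL7L1 had 91.2, 90.9 and 95.8 with inhibitor and 115, 106 and 113 with vehicle, also without overlap (log2 fold change -0.27, SE 0.051, edgeR adjusted p = 1.65e-05). RPS26 had 475, 428 and 429 with inhibitor and 470, 520 and 492 with vehicle, where 1 inhibitor library overlapped (log2 fold change -0.15, SE 0.038, edgeR adjusted p = 0.00182). The remaining fall was RPL23A, named after its value was seen, at -0.12 with overlapping libraries and a call lost in some alternatives. The MDM2 binders RPL5 at -0.02, RPL11 at 0.05, RPL23 at -0.02 and RPS7 at -0.02 were not called.

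**Figure D2:**
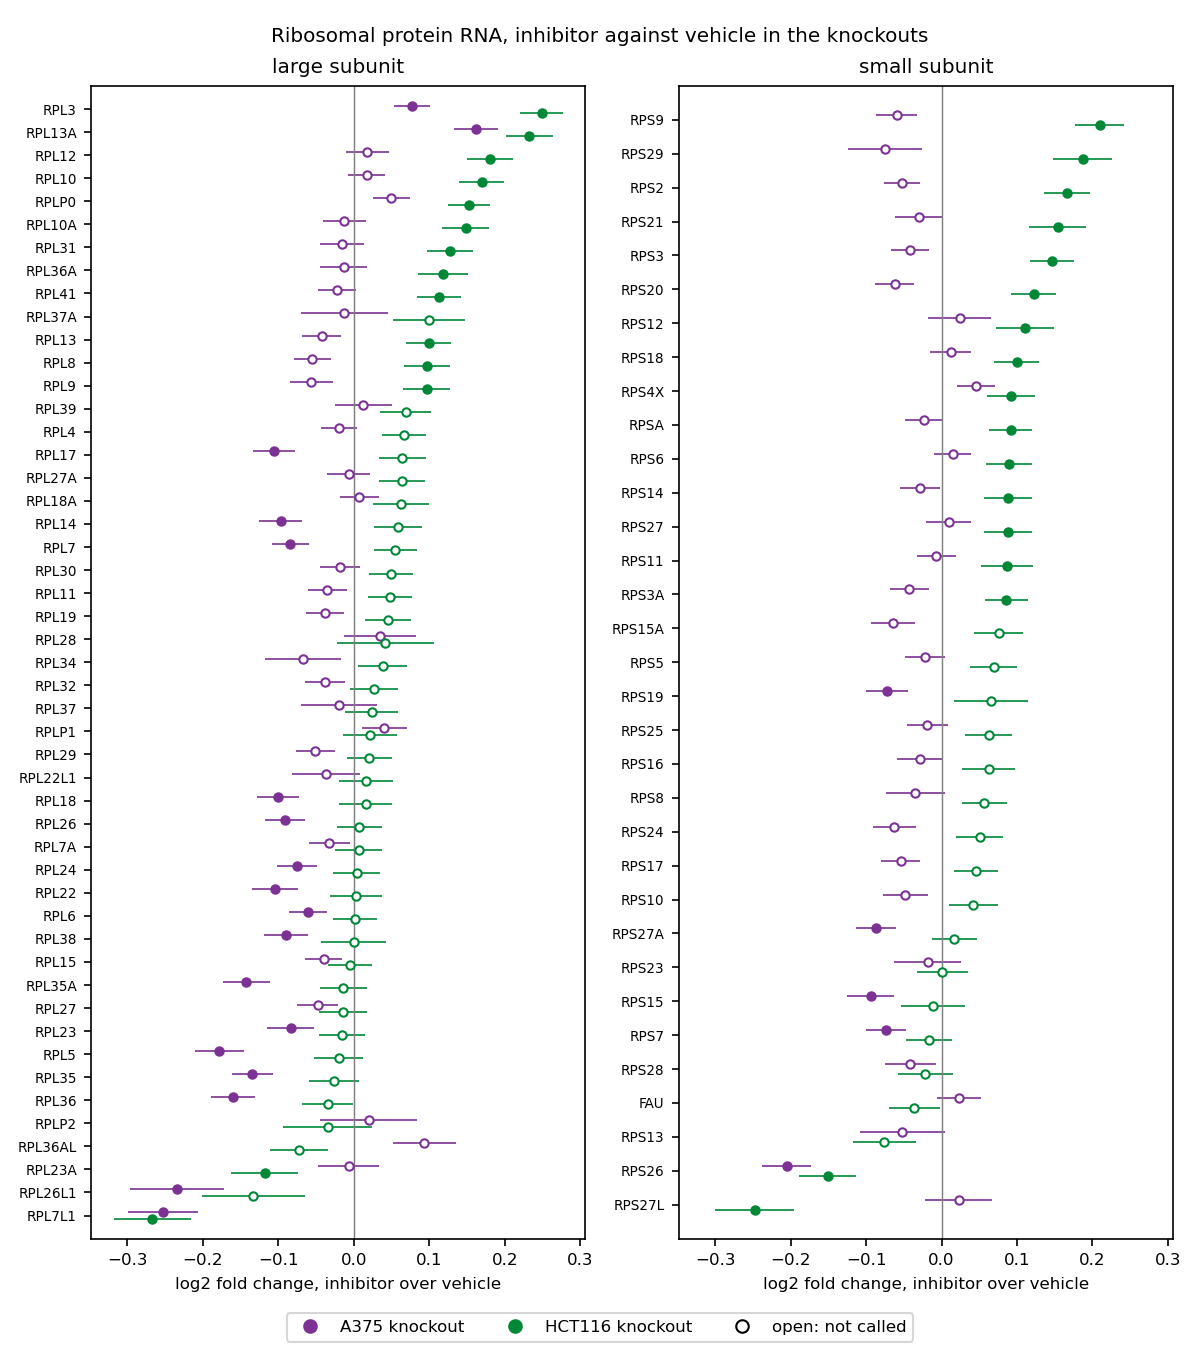
Log2 fold change ± SE of inhibitor over vehicle in A375 KO (purple) and HCT116 KO (green) cells for each single-gene member, large subunit in one panel and small subunit in the other, with filled points for adjusted p under 0.05. RPL21, the read-through genes, RPL39L and members under the filter are left out; the A375 points lie mostly below 0 where filled and the HCT116 points mostly above.

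The calls of the KO lines are set side by side here, with no count of the same kind over all genes. Whether these numbers are particular to the members was therefore not tested. Of all genes tested, 37.5% were called in A375 KO cells and 37.1% in HCT116 KO cells. RPL3 and RPL13A rose in both, and RPL7L1 and RPS26 fell in both. A further 25 members rose in HCT116 KO cells and were not called in A375 KO cells, and 19 fell in A375 KO cells and were not called in HCT116 KO cells. Another 2 fell in HCT116 KO cells only by call, 33 were called in neither, and no member was called in opposite directions.

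**Figure D3:**
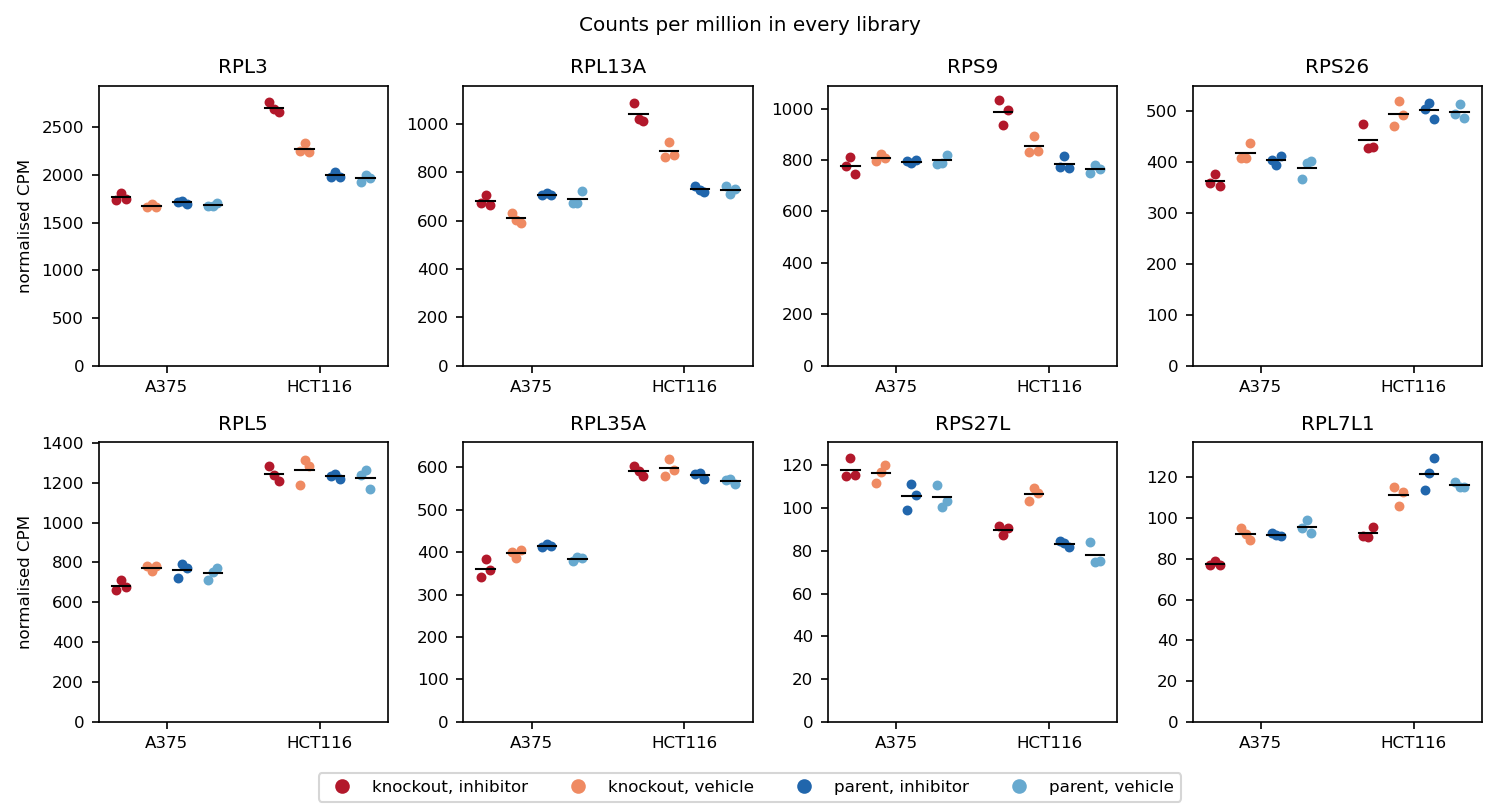
Normalised CPM of 8 members in every library, with A375 and HCT116 scaled separately and inhibitor left of vehicle. RPL3 and RPL13A are higher and RPL7L1 is lower with inhibitor in KO cells of both lines, while RPL5 and RPL35A are lower with inhibitor in A375 KO cells.

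The difference between the inhibitor effects of the KO lines was tested directly over all 24 libraries. Of 84 members, 2 had a higher effect in A375 than in HCT116 and 24 had a lower one (edgeR, adjusted p under 0.05), while over all genes tested 10.9% were higher and 8.75% lower (19.7% in all). RPS9 showed a difference of -0.26 on the log2 scale (SE 0.044, edgeR adjusted p = 1.44e-06), RPS2 one of -0.21, RPS3 one of -0.18 and RPL3, which rose in both, one of -0.17 (edgeR adjusted p = 0.00035). RPS29 gave -0.26, with a call lost in 1 of its alternatives. RPL5, which fell in A375 KO cells, gave -0.15 (edgeR adjusted p = 0.0395), also losing its call in some alternatives.

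RPS27L gave the larger of the 2 called positive differences, 0.28 (SE 0.069, edgeR adjusted p = 0.00156), having fallen in HCT116 KO cells and not in A375 KO cells, and RPL36AL gave 0.17 (edgeR adjusted p = 0.0238), which was lost in some alternatives. RPL13A at -0.07, RPS26 at -0.05 and RPL7L1 at 0.02 were not called (edgeR adjusted p = 0.339, 0.648 and 0.922). The lower calls numbered 13 without replicate 1 of either HCT116 KO group, 14 without replicate 3 and 37 without replicate 2 of A375 KO with inhibitor, and 39 without replicate 2 of HCT116 KO with vehicle. With a mean of at least 5 CPM required, 2 were higher and 42 lower.

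In the parent lines the inhibitor left no member called. In A375 parent cells 0 of 84 members passed with edgeR or DESeq2, and 3 had an unadjusted p under 0.05, while 0.104% of all genes tested were called (0.0372% up and 0.0669% down). The smallest adjusted p belonged to RPL35A, at a log2 fold change of 0.11 (edgeR adjusted p = 0.296), and RPL22L1 stood at 0.12. In HCT116 parent cells 0 of 83 members passed with either tool, 0 had an unadjusted p under 0.05, and 0% of all genes tested were called. Median members stood at 0.03 in A375 and 0.02 in HCT116 parent cells. In A375 parent cells 74 members lay above 0 and 10 below, and in HCT116 parent cells 66 and 17. Libraries did not overlap for 23 of 84 members in A375 parent cells, against 19 of 84 in A375 KO cells. In HCT116 this held for 3 of 83 in parent cells and 25 of 83 in KO cells. No such count was made over all genes, and separated libraries alone do not mark a called change.

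A direct test of the inhibitor effect in KO cells minus that in the parent gave further named differences. In A375, 1 member had a higher effect in the KO and 19 a lower one of 84 (edgeR, adjusted p under 0.05), while over all genes tested 13.3% were higher and 14% lower. RPS26 differed by -0.26 (SE 0.046, edgeR adjusted p = 1.09e-05), RPL35A by -0.25 (SE 0.045, edgeR adjusted p = 8.05e-06), RPL5 by -0.21 and RPL36 by -0.19. RPL13A was the member with a higher effect, at 0.13 (edgeR adjusted p = 0.0173), and it was not called without replicate 3 of parent vehicle or of KO vehicle. Without replicate 2 of KO with inhibitor 31 were lower, with library size alone 2 were higher and 11 lower, and limma on log2(TPM + 1) gave 4 and 8.

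In HCT116, 12 members had a higher effect in the KO and 3 a lower one of 83 (edgeR, adjusted p under 0.05), while over all genes tested 11.1% were higher and 13.8% lower. RPL3 and RPL13A differed by 0.23 each (edgeR adjusted p = 9.54e-06 and 3.6e-05) and RPL12 by 0.18. RPS27L differed by -0.34 (SE 0.074, edgeR adjusted p = 0.000243), RPL7L1 by -0.33 (SE 0.069, edgeR adjusted p = 0.000138) and RPS26 by -0.16, which lost its call in some alternatives. The higher calls numbered 7 without replicate 2 of parent vehicle, replicate 3 of parent with inhibitor, or replicate 1 or 3 of KO vehicle, and 24 without replicate 2 of KO vehicle. Without replicate 1 of KO with inhibitor 6 were higher and 5 lower.

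Loss of PTDSS2 itself, compared in vehicle, went with higher ribosomal protein RNA in the HCT116 clone. Of 83 members 33 rose and 0 fell (edgeR, adjusted p under 0.05), with 0 falls also by DESeq2 and 0 at an unadjusted p under 0.05. Over all genes tested, 10.5% rose and 10.8% fell. The members' share of counts was 7.37%, 7.73% and 7.46% in KO cells, against 7.02%, 7.11% and 6.95% in parent cells. Those libraries did not overlap, with a difference of 0.494 percentage points (exact permutation test, two-sided, p = 0.1, the smallest possible). With 1 clone per line, an effect of the knockout and a property of the clone cannot be told apart.

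RPS27L rose most in the HCT116 clone, with 104, 110 and 107 normalised CPM in KO cells and 84.3, 74.7 and 75.1 in parent cells. No library overlapped (log2 fold change 0.45, SE 0.050, edgeR adjusted p = 4.15e-11). RPL12 had 1073, 1140 and 1050 in KO cells and 900, 888 and 862 in parent cells, also apart in every library (log2 fold change 0.30, SE 0.031, edgeR adjusted p = 1.92e-12). RPL13A rose by 0.28, its sum with RPL13AP5 standing at 2053 ± 57.8 CPM in KO cells and 1724 ± 25.8 CPM in parent cells (SD, n = 3 each). RPL3 rose by 0.21, RPS12 by 0.19, RPLP0 by 0.17 and RPSA by 0.16, while RPL5 at 0.04, RPS26 at -0.01 and RPL22L1 at 0.01 were not called. RPS27L and RPL3 thus went opposite ways with inhibitor in this clone, RPS27L down and RPL3 further up.

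The A375 clone differed less. Of 84 members 7 rose and 2 fell (edgeR, adjusted p under 0.05), while over all genes tested 9.54% rose and 6.78% fell. The median member stood at 0.02, and at -0.02 with library size alone. RPS27L had 112, 117 and 120 normalised CPM in KO cells and 111, 101 and 104 in parent cells, close but not overlapping, and rose by 0.15 (edgeR adjusted p = 0.0233). RPL35 rose by 0.11, and RPS26 by 0.11. RPL13A fell by 0.18 (SE 0.030, edgeR adjusted p = 4.88e-06), its sum with RPL13AP5 standing at 1979 ± 6.93 CPM in KO cells and 2125 ± 35.3 CPM in parent cells (SD, n = 3 each), and RPL22L1 fell by 0.14.

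RPL13A kept its call in every alternative run, and each of the other calls was lost in at least 1. Without replicate 1 of parent vehicle 2 rose and 1 fell, without replicate 3 of KO vehicle 1 rose, and without replicate 3 of parent vehicle or replicate 2 of KO vehicle 4 rose. Library size alone gave 0 rises and 4 falls, and DESeq2 gave 3 and 1. The 3 KO vehicle libraries of each line also served as reference for inhibitor in KO cells, so the 2 comparisons are not independent. RPL14, RPL22, RPL35, RPS19, RPS26 and RPS27A rose in the A375 clone and fell with inhibitor in A375 KO cells, and RPL13A did the reverse. RPS27L and RPL22L1, also called in the clone, were not called with inhibitor. The part of the shared libraries in this was not tested.

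Between the parent lines in vehicle most members differed, as did most genes. Of 84 members 44 were higher and 29 lower in A375 than in HCT116 (edgeR, adjusted p under 0.05), while over all genes tested 42.2% were higher and 39.6% lower (81.8% in all). RPS21 had 790, 820 and 836 normalised CPM in A375 and 458, 461 and 460 in HCT116, well apart (log2 fold change 0.83, edgeR adjusted p = 1.74e-17). RPS6 had 2177, 2209 and 2177 in A375 and 1356, 1362 and 1294 in HCT116 (log2 fold change 0.71, SE 0.028, edgeR adjusted p = 4.4e-42). RPS27 was higher by 0.71 and RPL39, at the exit tunnel of the large subunit, by 0.59. On the other side RPL5 had 732, 771 and 793 in A375 and 1221, 1235 and 1140 in HCT116, again far apart (log2 fold change -0.65, SE 0.038, edgeR adjusted p = 1.66e-17).

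The largest differences, RPL39L aside, were in paralogs. RPL22L1, which can replace RPL22, had 129, 119 and 122 normalised CPM in A375 and 298, 307 and 287 in HCT116, the groups lying far apart (log2 fold change -1.27, SE 0.040, edgeR adjusted p = 1.65e-50). Per length, RPL22L1 stood at 28.2% ± 1.45 of the TPM of RPL22 in A375 parent cells with vehicle and at 61.0% ± 1.81 in HCT116 parent cells with vehicle (SD, n = 3 each). RPL36AL had 122, 123 and 120 normalised CPM in A375 and 222, 227 and 214 in HCT116 (log2 fold change -0.87, SE 0.041, edgeR adjusted p = 1.41e-36). Its ratio to RPL36A, itself uncertain, was 40.8% ± 1.503 in A375 and 104% ± 4.09 in HCT116. RPS27L and RPL26L1 were higher in A375, by 0.49 and 0.33, and RPL7L1 was lower by a log2 fold change of -0.22.

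RPL39L, a paralog best known from testis and some cancers, separated the lines completely. It had 9.50, 12.3 and 11.4 normalised CPM in A375 parent vehicle libraries. All 12 HCT116 libraries were at 0 counts, while each A375 library held 77 to 127. Over the 12 libraries of each line it was at least 360-fold higher in A375, with 3 counts over the HCT116 libraries as the floor. In A375 parent cells with vehicle it stood at 1.10% ± 0.156 of the TPM of RPL39 (SD, n = 3). RPL10L, a testis paralog, summed to 38 counts over the A375 libraries and 0 over the HCT116 libraries, and RPL3L, a muscle paralog, to 1 and 8, so neither could be tested.

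**Figure D4:**
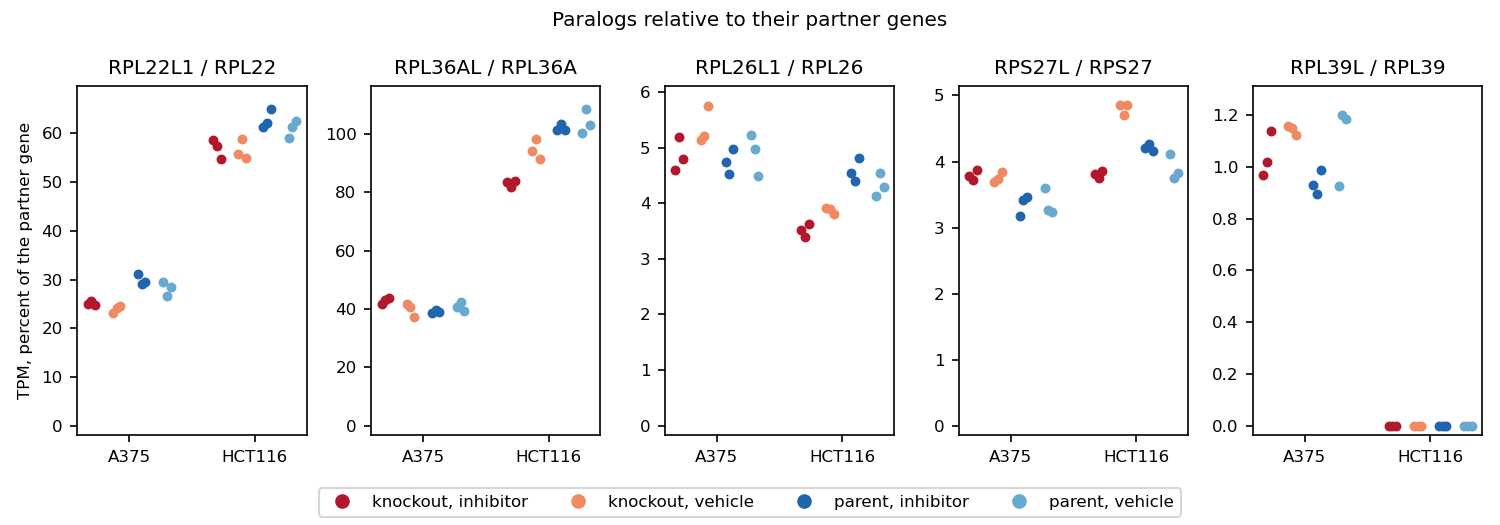
TPM of 5 paralogs as a percent of the TPM of their partner in every library, A375 left and HCT116 right. RPL22L1 and RPL36AL lie lower in A375 than in HCT116 in all groups, RPL39L is at 0 in HCT116, and the RPS27L ratio is lower in HCT116 KO cells with inhibitor than with vehicle.

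Some paralog ratios differed with inhibitor in the KO cells and others lay close. RPS27L stood at 3.80% ± 0.0502 of RPS27 in HCT116 KO cells with inhibitor and at 4.80% ± 0.0928 with vehicle (SD, n = 3 each). RPL7L1 stood at 3.72% ± 0.0377 of RPL7 with inhibitor and at 4.18% ± 0.149 with vehicle in A375 KO cells. In HCT116 KO cells that ratio was 2.72% ± 0.116 with inhibitor and 3.40% ± 0.253 with vehicle. RPS27L stood at 3.79% ± 0.0733 of RPS27 in A375 KO cells with inhibitor and at 3.75% ± 0.0761 with vehicle, and RPL22L1 at 57.0% ± 1.996 of RPL22 in HCT116 KO cells with inhibitor and at 56.5% ± 2.01 with vehicle. These ratios are given as values, and the calls above were made on each gene.

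Start letters and calls can be read together for members with a start sequence. In A375 KO cells with inhibitor over vehicle, of 44 members with a run read from the start base 1 rose and 10 fell, and of 24 without one 1 rose and 8 fell. In HCT116 KO cells 16 of the 44 rose, and of the 24 without a run 7 rose and 3 fell. For HCT116 KO over parent cells, 19 of the 44 and 7 of the 24 rose. Of all genes tested, 18.7% rose and 18.8% fell in A375 KO cells, and 17.1% rose and 20.1% fell in HCT116 KO cells. For HCT116 KO over parent cells 10.5% of all genes tested rose. Whether the shares of members with and without a run differ was not tested.

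Other genes of the translation machinery give the setting. Among 27 translation factors and other TOP mRNAs in A375 KO cells with inhibitor over vehicle, 4 rose and 13 fell. They included falls of NPM1, a nucleolar chaperone, by 0.24 and of PABPC1, the poly(A)-binding protein, by 0.23 on the log2 scale (edgeR adjusted p = 1.1e-13 and 6.19e-12). In HCT116 KO cells 8 rose and 5 fell, among them EEF1A1, the elongation factor that delivers aminoacyl-tRNA, which rose by 0.25 (edgeR adjusted p = 2.23e-11), and EEF2, the translocase, which rose by 0.20. CCT4, a chaperonin subunit, fell in both, by 0.22 in A375 and by 0.25 in HCT116. The list medians were -0.07 in A375 and 0.00 in HCT116, against 0.01 and 0.00 over all genes tested. Of all genes tested, 18.7% rose and 18.8% fell in A375 KO cells, and 17.1% rose and 20.1% fell in HCT116 KO cells.

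Most chaperones and import factors of ribosomal proteins fell in both KO lines. In A375 KO cells 1 of 18 rose and 12 fell, with a median of -0.16, and in HCT116 KO cells 12 fell and 6 were not called, with a median of -0.13. The shares of all genes tested were 18.7% up and 18.8% down in A375, and 17.1% up and 20.1% down in HCT116. GRWD1, whose yeast counterpart escorts RPL3, fell by 0.31 in A375 and by 0.43 in HCT116 (edgeR adjusted p = 2.21e-09 and 3.45e-11). BCCIP, whose yeast counterpart escorts RPL23, fell by 0.29 and by 0.34. The importin IPO5 fell by 0.28 in A375, and TNPO1, another importin, fell by 0.36 in HCT116. RPL3 RNA thus rose in both KO lines while GRWD1 RNA fell.

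Mitochondrial ribosomal proteins mostly fell where they were called. Of 77 tested, 1 rose and 38 fell in A375 KO cells, with a median of -0.14, and 42 fell and 35 were not called in HCT116 KO cells, with a median of -0.17. All genes tested gave 18.7% up and 18.8% down in A375 KO cells, and 17.1% up and 20.1% down in HCT116 KO cells. MRPL12, of the large mitochondrial subunit, fell by 0.35 in A375 and by 0.29 in HCT116 (edgeR adjusted p = 8.96e-10 and 8e-09). MRPL20 fell by 0.41 in A375, and MRPL36 fell by 0.54 in HCT116.

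Of 21 regulators of mTORC1 and translation, 6 rose and 6 fell in A375 KO cells with inhibitor, with a median of 0.03, and 4 rose and 6 fell in HCT116 KO cells, with a median of -0.07. Over all genes tested, 37.5% were called in A375 and 37.1% in HCT116. DDIT4, a stress-induced inhibitor of mTORC1, averaged 362 normalised CPM in A375 KO cells with inhibitor and 222 with vehicle, and 226 CPM in HCT116 KO cells with inhibitor and 38.1 with vehicle. Its log2 fold changes were 0.70 (SE 0.033) and 2.56 (SE 0.054), with edgeR adjusted p = 1.35e-26 and 3.18e-48. SESN2, which also restrains mTORC1, rose by 0.56 in A375 and by 1.19 in HCT116, and PDCD4, a brake on the helicase eIF4A, rose by 0.45 and by 0.92. Among the falls were LARP4, an mRNA-binding protein, by 0.34 in A375 and EIF4G1, the scaffold of the cap-binding complex, by 0.30 in HCT116.

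Of 15 p53 targets, 8 rose and 1 fell in A375 KO cells with inhibitor, and 7 rose and 2 fell in HCT116 KO cells, while 18.7% and 17.1% of all genes tested rose. CDKN1A, the p21 cell cycle inhibitor, averaged 123 normalised CPM with inhibitor and 102 with vehicle in A375 KO cells, and 268 CPM with inhibitor and 222 with vehicle in HCT116 KO cells, a log2 fold change of 0.27 in each. AEN, a p53-induced nuclease, fell by 0.43 in HCT116. RPS27L, not on the list but induced by p53, fell in the same HCT116 cells.

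In vehicle some p53 targets rose in both clones, as did RPS27L. In the A375 clone 5 of 15 rose, where 9.54% of all genes tested did, and in the HCT116 clone 9 rose, where 10.5% of all genes tested did, CDKN1A by 0.25 in A375 and by 0.41 in HCT116. MDM2 rose by 0.43 in HCT116. The chaperones gave 1 rise and 9 falls of 18 in the HCT116 clone, where 13 mitochondrial ribosomal proteins of 77 fell and 10.8% of all genes tested did. In the A375 clone 7 of the 77 mitochondrial ribosomal proteins rose and 2 fell, where 9.54% of all genes tested rose and 6.78% fell.

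**Figure D5:**
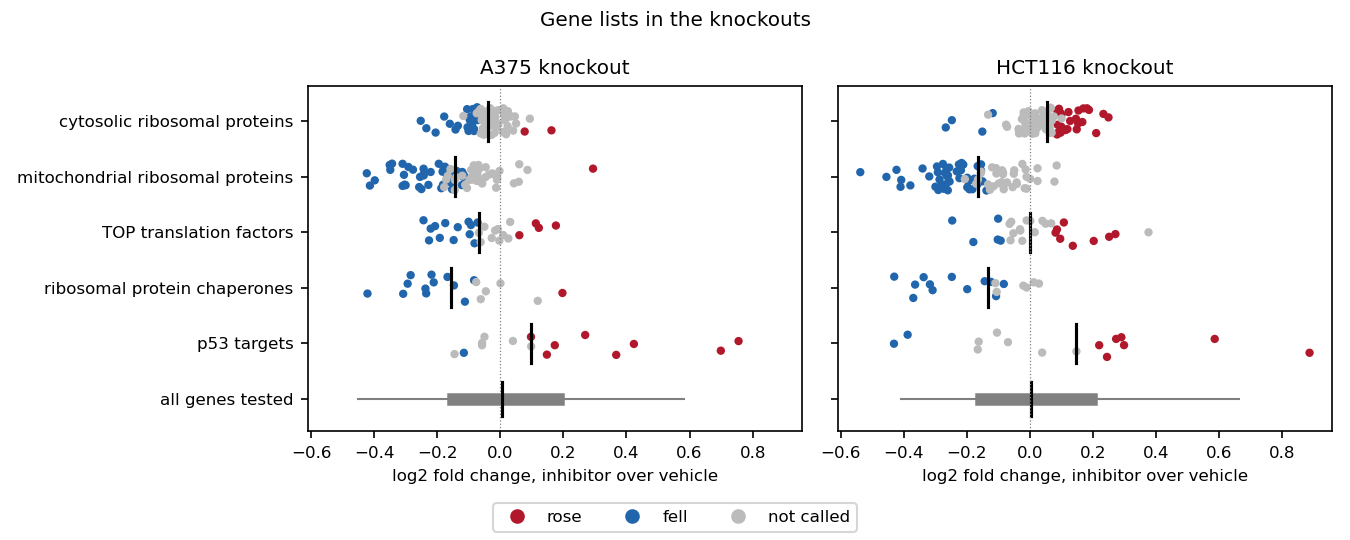
Log2 fold changes of inhibitor over vehicle in KO cells for the genes of each list shown, A375 left and HCT116 right. The regulators of mTORC1 and translation, RPL21 and the read-through genes are left out. Points are genes, black ticks are medians, and for all genes tested the bar spans the 25th to 75th and the line the 5th to 95th percentile; mitochondrial ribosomal proteins and chaperones lie mostly below 0 in both lines, and cytosolic ribosomal proteins lie close to 0.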

How the data were processed

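Poly(A) RNA libraries were made with NEBNext kits, per the labels' protocols. Reads were processed with STAR 2.4.2a and RSEM 1.2.23 on hg19, per the submitters' processing notes; filters, annotation release and strand setting were not given in the sources used here. Expected counts and TPM, as deposited, are RSEM's gene-level estimates (per the file headers). Deposited FPKM values were not used. Of 25343 genes, 25220 were matched to symbols with a RefSeq table of GRCh38.p14, used for names and start-site letters only.

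Counts were rounded, filtered (filterByExpr, minimum count 10, minimum total 15) and scaled by TMM. Each line (12 libraries), or all 24 for contrasts across lines, was fitted with edgeR 4.0.16 (R 4.3.3; robust quasi-likelihood F test, two-sided), with p-values adjusted by Benjamini-Hochberg over all genes tested. Called means adjusted p under 0.05, and an SE is the log2 fold change over the square root of F. Normalised CPM use TMM within a line, or over both lines for A375 against HCT116. RPL3L and RPL10L passed no filter, and RPL39L not that of HCT116. Alternatives were library size alone, DESeq2 size factors, other filters, DESeq2 1.42.0, limma-voom, limma 3.58.1 on log2(TPM + 1) or log2(TPM + 0.1), fewer or more libraries, a block on replicate number, and leaving out single libraries. The fit was also run on simulated counts drawn from its own fitted spread, which cannot show whether the libraries of a group were separate cultures.

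Members with fixed roles were named in every comparison, and besides them the 5 largest called rises and falls (mean of at least 8 CPM) or the 3 smallest p, and up to 4 genes of other lists. For inhibitor over vehicle, RPL35A in A375 KO cells and RPS2 in HCT116 KO cells were named outside this rule. They are not among the 132 called results summarised below. Members and lists were chosen with earlier results of these data known.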

Additional observations from a re-analysis of the deposited data

Results flagged for a closer look

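Differences between inhibitor effects passed a direct test with edgeR. The inhibitor effect differed between HCT116 KO and parent cells for 15 members (18.1% of those tested, against 24.9% of all genes tested), with RPS27L at -0.34, RPL7L1 at -0.33, RPL13A at 0.23 and RPL3 at 0.23 on the log2 scale. It differed between A375 KO and parent cells for 20 members (23.8%, against 27.3% of all genes), with RPS26 at -0.26, RPL35A at -0.25 and RPL13A at 0.13. Counted in either direction, members were thus called less often than all genes tested in both of these comparisons. Between the KO lines it differed for 26 members (31.0%, against 19.7% of all genes), with RPS9 at -0.26, RPS29 at -0.26, RPS27L at 0.28 and RPL36AL at 0.17 for A375 minus HCT116. RPL13A shares reads with RPL13AP5, so its values rest on how RSEM divided them. RPS26, RPL7L1 and RPL36AL also had fractional estimates, so their values rest in part on such a division.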

How the results depend on the processing

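Of 132 called results for named members, 88 held their call in every alternative, 44 lost it in at least 1 and 0 changed direction. Of 6 differences in summed share, 1 changed direction.

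Against 9 called members for A375 KO over parent, library size alone gave 4, DESeq2 4, limma on log2(TPM + 1) and log2(TPM + 0.1) 5 each, and all 24 libraries 5. For the A375 effect, KO minus parent, the count of 20 was 13 with library size alone and 12 with each TPM setting. For the HCT116 effect the count of 15 was 26 and 24, and for A375 minus HCT116 the count of 26 was 44 at a mean of at least 5 CPM. The cause was not tested. Alternative counts above and below are given without the share of all genes called in the same run. A move in a member count thus cannot be told apart from a move in calls over all genes.

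With each library left out in turn, counts ran from 16 to 35 for inhibitor in A375 KO, 22 to 41 in HCT116 KO, 3 to 7 for A375 KO over parent, 23 to 42 for HCT116 KO over parent, 14 to 32 for the A375 and 10 to 26 for the HCT116 effect difference, 15 to 40 between the KO lines and 72 to 74 between the parents. The difference in summed share for inhibitor in A375 KO ran from -0.195 to 0.00133 percentage points.

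Replicate numbers showed no sign of pairing. Correlations of deviations ran from -0.317 to 0.204 for same-numbered libraries and from -0.309 to 0.276 for the others. Such correlations cannot show whether libraries were paired by design. With the replicate block, 2 members rose and 22 fell for inhibitor in A375 KO, and 31 rose and 4 fell in HCT116 KO. For KO over parent it called 41 in HCT116 and 9 in A375.

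Precision is limited by 3 libraries per group and, for RPL39L, RPL10L and RPL3L, by low counts.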
